A study of Mus musculus with 9 samples.

Results

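The genes described here encode the membrane proteins and enzymes of the lysosome, the vacuolar H+-ATPase (V-ATPase) that acidifies it, the autophagy machinery that delivers cargo to it, and the MiT/TFE transcription factors. They were taken as a list of 55 gene symbols chosen by function, with earlier results of these data known. In the array annotation 53 of them had a probe set (a group of short oligonucleotides that together read 1 transcript) assigned to that gene alone, out of 18194 genes with such a probe set. The other 2, the V-ATPase gene Atp6v0c and the lysosomal membrane protein gene Cd63, were not analysed here. Where a gene had several probe sets, the one with the highest mean over the 9 arrays stood for it. The 53 genes all passed the filter on low signal, a mean above 0.31 log2, as did 13278 genes in the whole table. They were 20 lysosomal genes, 14 V-ATPase genes, 16 autophagy genes and 3 transcription factor genes.

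The cells were cytotoxic T lymphocytes (CTL) grown from spleens of mice of the P14-TCR strain, given as wild type apart from that T cell receptor transgene, so that the transgene was shared by every culture. Splenic CD8 T cells were stimulated for 48 h with the peptide gp33-41, which the P14 receptor recognises, and with interleukins 2 and 12, and were then washed and grown for 96 h more. The 3 groups differed in what was present for the last 48 h, which was KU-0063794 at 1 uM, rapamycin at 20 nM, or DMSO as the control. Each group held 3 cultures, collected on day 6, and the total RNA of each was hybridised to 1 Affymetrix mouse array. One spleen gave the KU-0063794, the rapamycin and the DMSO culture of the same replicate number, so the study holds 3 mice, and triplets of values below run from spleen 1 to spleen 3. Neither age nor sex of the mice is given in the sources used here.

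Lysosomes degrade proteins, glycans and lipids with acid hydrolases, and the V-ATPase supplies the acid by coupling ATP hydrolysis in its V1 sector to proton transport through its V0 sector. The kinase complex mTORC1 is activated on the lysosomal surface, where it restrains autophagy through ULK1 and keeps the transcription factors TFEB and TFE3 in the cytosol. When mTORC1 is inhibited these factors can enter the nucleus and bind an E-box, with the letters CACGTG, found in the promoters of many lysosomal and autophagy genes. Rapamycin binds FKBP12 and blocks part of the output of mTORC1, whereas KU-0063794 blocks the mTOR kinase itself and so also mTORC2. In CTL the lysosome is related to the cytolytic granule, which carries LAMP1 and several cathepsins.

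Promoter windows of RefSeq (build GRCm38.p6), which run from 250 bases before a gene's start to 50 bases after it, were available for 43 of the 53 genes. The E-box CACGTG, which reads the same on both strands, stood in the window of 14 of these 43 genes, or 32.558%, against 8.093% of all 27025 genes with a window. The extended form TCACGTGA, also the same on both strands and counted among the E-boxes, stood in 8 of the 43 genes, or 18.605%, against 1.125% of all genes. As said above, this E-box is known from many lysosomal and autophagy genes, so a higher share was to be anticipated from how the list was chosen. The 27025 genes were not limited to those tested on the arrays. No window was at hand for Atg12, Atg16l1, Atp6v0a2, Atp6v1b2, Atp6v1c1, Atp6v1h, Becn1, Ctsb, Map1lc3a and Npc1. The stretches below are those of the 8 genes that both held an E-box and passed a test against DMSO, some of which rose and some of which fell. Whether the E-box goes with the direction was not tested. Each is written 5′ to 3′ on the strand of its gene, with the E-boxes in capitals and up to 15 bases on either side.
Lamp1: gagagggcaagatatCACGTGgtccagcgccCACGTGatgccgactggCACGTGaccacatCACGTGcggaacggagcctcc
Ctsa: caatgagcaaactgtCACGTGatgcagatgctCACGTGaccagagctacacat
Gla: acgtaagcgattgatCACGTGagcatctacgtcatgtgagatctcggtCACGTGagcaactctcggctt
Ctsd: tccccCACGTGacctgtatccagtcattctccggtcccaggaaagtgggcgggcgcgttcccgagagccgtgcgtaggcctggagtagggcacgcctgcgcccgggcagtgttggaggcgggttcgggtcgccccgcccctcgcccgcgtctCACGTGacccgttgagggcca
Ctsl: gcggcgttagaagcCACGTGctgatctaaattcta
Atp6v1a: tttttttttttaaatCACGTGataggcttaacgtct
Atp6v0d1: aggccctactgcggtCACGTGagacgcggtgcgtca
Atg5: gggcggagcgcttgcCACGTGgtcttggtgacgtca

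The stretch of Lamp1 lies at chr8:13159085-13159166 on the plus strand and holds 4 E-boxes. Ctsa lies at chr2:164833746-164833798 on the plus strand, Gla at chrX:134601179-134601247 on the minus strand and Ctsd at chr7:142387905-142388077 on the minus strand, and each holds 2. The single E-boxes are those of Ctsl at chr13:64370736-64370770 (minus strand), Atp6v1a at chr16:44139370-44139405 (minus strand), Atp6v0d1 at chr8:105566047-105566082 (minus strand) and Atg5 at chr10:44268310-44268345 (plus strand). In Ctsa and Gla both E-boxes were of the extended form, as was 1 of those of Ctsd and the single E-boxes of Atp6v1a and Atp6v0d1. A match is a description of letters and not evidence that a factor binds there.

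**Figure D1:**
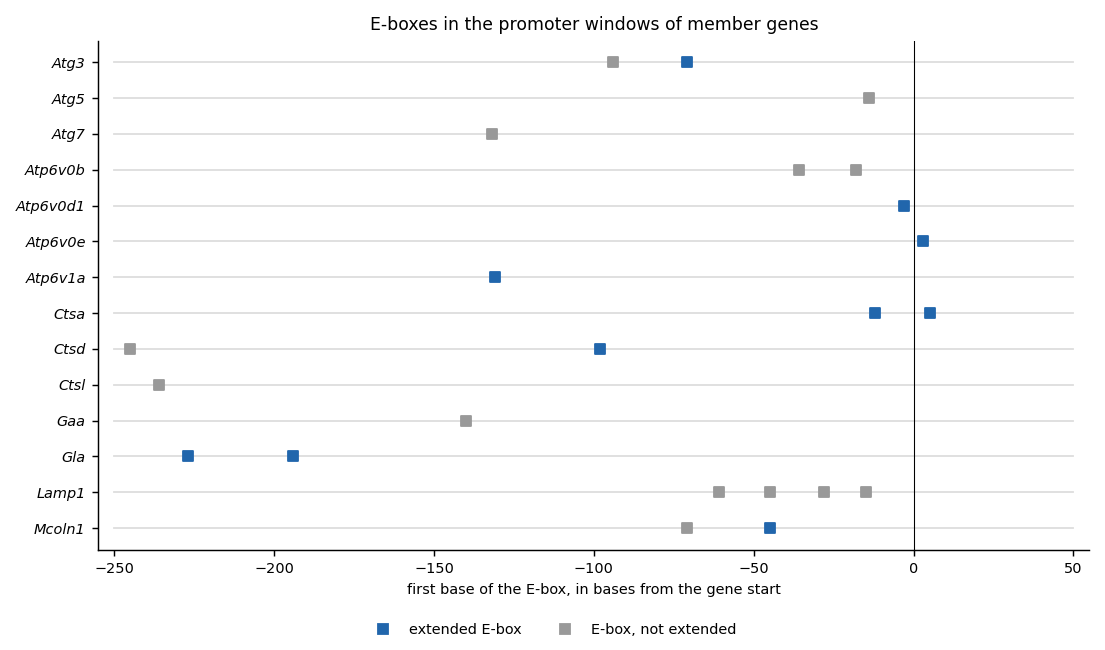
Position of each E-box (squares) in the promoter windows of the 14 genes that held one, in bases from the gene start, with the first base after the upstream 250 counted as 0; blue squares are the extended form. Lamp1 had 4 E-boxes, from base -61 to base -15, and the extended form stood in 8 of the 14 genes.

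All values are log2 signals as deposited, and a difference of 1 is a 2-fold difference. Signal on 28 tissue-restricted genes had a median of 0.38 log2 and a 95th percentile of 1.38 log2, called the background level here, which 47 of the 53 genes exceeded in their mean. The 6 below it were Npc1, Ctsl, Tfeb, Mitf, Atp6v0a1 and Wipi1. Of the 13278 genes tested, 8025 exceeded the background level, and the shares of all genes given below also cover those that did not. The 10 measured genes of CD8 T cell identity were all above it in every group. Of the markers of other cells, 1 of 18 myeloid (Csf1r), 2 of 7 B cell, 2 of 3 NK cell and 2 of 5 CD4 T cell genes exceeded it. The log2 values of the 18 myeloid markers added up to 6.75 to 7.99 in KU-0063794, 6.53 to 7.30 in rapamycin and 7.27 to 8.03 in DMSO cultures. Such a sum of log2 values is not the log2 of a total signal. Of these markers Cd68, a macrophage protein of the lysosome and below the background level here, fell with rapamycin by 0.50 on the log2 scale (adjusted p = 0.0208). Of the CD8 T cell genes the adaptor gene Lat fell with KU-0063794 (-0.39 log2, adjusted p = 0.0229). With the spleen block Cd247 also fell and Cd2 rose with KU-0063794, and Cd8b1, Cd2 and Cd5 rose and Lat fell with rapamycin, by 0.25 to 0.54 log2 in size, and the part of these changes in the results was not tested. In the actin control, a gauge of RNA integrity, the 3′ probe set exceeded the 5′ one by 0.65 to 0.70 log2 in KU-0063794, 0.62 to 0.72 log2 in rapamycin and 0.49 to 0.65 log2 in DMSO cultures. In the Gapdh control the same difference was -0.22 to -0.03 log2 in KU-0063794, -0.25 to -0.03 log2 in rapamycin and -0.21 to 0.04 log2 in DMSO cultures. Within every spleen DMSO was the lowest in the actin control and the highest in the Gapdh control. The part of RNA integrity in the results was not tested. Since the arrays read bulk RNA, fewer cells of a type and less RNA per cell cannot be told apart.

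Lysosomal, V-ATPase and autophagy genes did not move as 1 block with either inhibitor. Against DMSO, 12 of the 14 V-ATPase genes had a negative difference with either inhibitor, though 2 passed with KU-0063794 and 0 with rapamycin. The 3 genes that rose were lysosomal, and the protease gene Ctsd fell with both. With KU-0063794, 0 of 53 genes rose and 4 fell, namely Ctsd, Atp6v0d1, Atp6v1d and Gabarap, where 2.28% of all genes tested rose and 1.78% fell. At an unadjusted p under 0.05, 4 of the 53 were higher and 16 lower with KU-0063794, where 18.5% of all genes had such a p in either direction. With rapamycin it was 6 higher and 10 lower, where 17.9% of all genes did. With rapamycin, 3 genes rose, Lamp1, Lamp2 and Npc2, and 1 fell, Ctsd, where 2.65% of all genes rose and 1.79% fell. These calls are limma's two-sided test with a Benjamini-Hochberg adjusted p under 0.05 over all 13278 genes. Both contrasts use the same 3 DMSO arrays, so their results are not independent of each other.

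Because each spleen gave 1 culture to every group, a second fit took the spleen as a block and so set each treated culture against the DMSO culture of the same mouse. In it 3 genes rose and 9 fell with KU-0063794, where 6.52% of all genes rose and 5.86% fell. With rapamycin 8 rose and 4 fell in the same fit, where 6.24% of all genes rose and 5.52% fell. In all, 18 of the 53 genes passed against DMSO with at least 1 inhibitor in at least 1 of the 2 fits, as did 15.9% of all genes tested. With the spleen as a random effect in place of the fixed block, the calls of Ctss, Sqstm1, Tpp1 and Uvrag with KU-0063794 were lost (adjusted p of 0.0506 to 0.108), as were those of Ctsa, Ctsl, Ctss, Gla and Gusb with rapamycin (0.0522 to 0.188). When only the 2 groups compared entered the limma fit, 0 of the 53 genes passed with either inhibitor, where 0.836% of all genes passed with KU-0063794 and 0.738% with rapamycin. In that fit 20 of the 53 had an unadjusted p under 0.05 with KU-0063794 and 15 with rapamycin. The share of all genes with such a p in that fit is not given here. In the fit of all 3 groups without the block it was 18.5% with KU-0063794 and 17.9% with rapamycin.

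**Figure D2:**
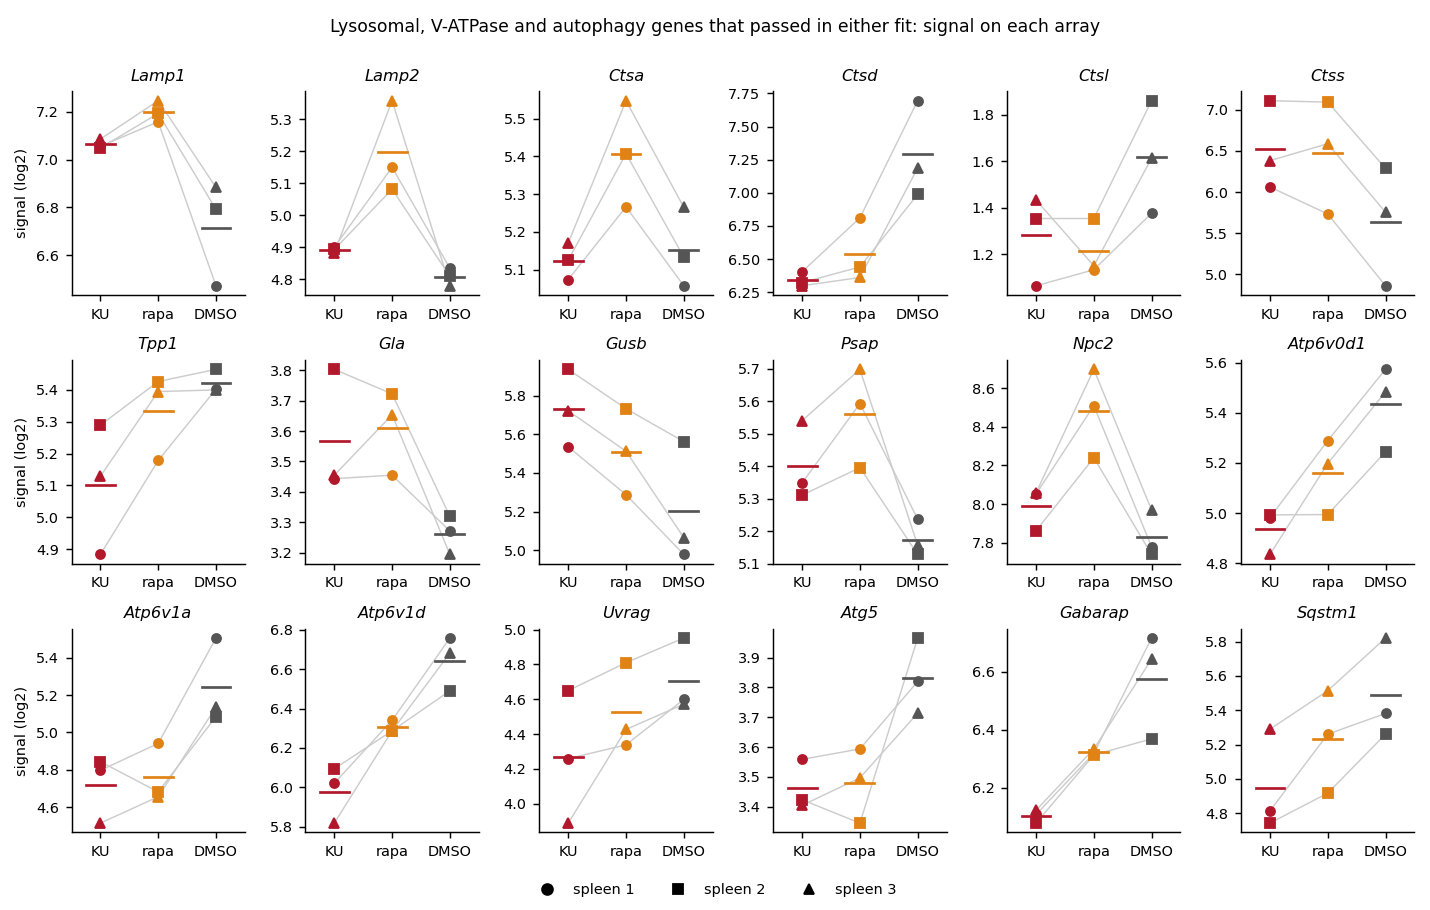
Signal (log2, vertical axis, a separate scale for each gene) on every array of the 18 genes that passed against DMSO in either fit, with KU-0063794, rapamycin and DMSO from left to right; symbols mark the spleens, grey lines join cultures of 1 spleen and bars are group means. Ctsd at 6.30 to 6.41 log2 with KU-0063794 and 6.36 to 6.81 log2 with rapamycin lay below its DMSO arrays at 6.99 to 7.70 log2, and Npc2 lay highest with rapamycin.

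Lamp1, a heavily glycosylated protein of the lysosomal and cytolytic granule membrane that is used to detect degranulation, read 7.06, 7.05 and 7.09 log2 with KU-0063794, 7.16, 7.19 and 7.25 log2 with rapamycin, and 6.47, 6.79 and 6.88 log2 with DMSO. Every inhibitor array lay above every DMSO array, and DMSO replicate 1 was the lowest. Lamp1 rose with rapamycin by 0.48 log2 (SE 0.105, 95% interval 0.25 to 0.72, adjusted p = 0.0352). With KU-0063794 its difference was 0.35 log2 (SE 0.105), which passed with the spleen block (adjusted p = 0.0437) and not without it (adjusted p = 0.109). The rapamycin call was lost without any 1 array other than DMSO replicate 3 (adjusted p of 0.0539 to 0.114), and with the block it was lost without any 1 rapamycin array (0.0513 to 0.0740). The blocked KU-0063794 call was lost without any 1 of the 9 arrays (0.0595 to 0.175).

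Lamp2, a sister protein of Lamp1 that also serves chaperone-mediated autophagy, read 4.90, 4.89 and 4.88 log2 with KU-0063794, 5.15, 5.08 and 5.36 log2 with rapamycin, and 4.83, 4.81 and 4.78 log2 with DMSO. The rapamycin arrays lay above all others, and the KU-0063794 arrays lay just above the DMSO arrays. It rose with rapamycin by 0.39 log2 (SE 0.0848, adjusted p = 0.0352) and differed by 0.08 log2 with KU-0063794 (adjusted p = 0.675). The rapamycin call was lost without any 1 array other than rapamycin replicate 2 (adjusted p of 0.0587 to 0.0964). With the spleen block it was lost without rapamycin replicate 1 or 3 or any DMSO array (0.0516 to 0.0900).

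Lamp2 is the gene whose probe sets disagreed most. It had 4 probe sets above the background level, and a second one gave 0.40 log2 with rapamycin and 0.07 log2 with KU-0063794. The other 2 ran the opposite way, at -0.43 and -0.24 log2 with rapamycin and -0.89 and -0.60 log2 with KU-0063794. When each probe set was tested on its own, both of these lower values with KU-0063794 passed, with adjusted p = 0.0453 and adjusted p = 0.0303. The direction given for Lamp2 therefore holds for 2 of its 4 probe sets, and which transcripts each one reads is not given in the annotation used here.

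Npc1 and Npc2 hand cholesterol out of the lysosome, Npc2 as the soluble protein of the lumen and Npc1 as the membrane protein that receives it. Npc2 read 8.05, 7.86 and 8.06 log2 with KU-0063794, 8.51, 8.24 and 8.70 log2 with rapamycin, and 7.78, 7.74 and 7.97 log2 with DMSO. All 3 rapamycin arrays stood above every other array, while KU-0063794 and DMSO arrays overlapped. Npc2 rose with rapamycin by 0.65 log2, a 1.57-fold difference (SE 0.125, adjusted p = 0.0216), and its difference with KU-0063794 was 0.16 log2 (adjusted p = 0.56). A second bright probe set of Npc2 gave 0.58 log2 with rapamycin and 0.13 log2 with KU-0063794. Averaged with its other 2 probe sets, both below the background level, the rapamycin difference was 0.29 log2 and did not pass without the block (adjusted p = 0.145, blocked 0.0283). The rapamycin call was lost without rapamycin replicate 1 or 3 or DMSO replicate 1 or 2 (adjusted p of 0.0576 to 0.0836), and with the spleen block it was kept without each of the 9 arrays in turn (0.00745 to 0.0277). Npc1 was near background, at 0.94, 0.78 and 0.95 log2 with KU-0063794, 1.27, 0.93 and 0.85 log2 with rapamycin, and 1.28, 0.81 and 1.17 log2 with DMSO, and did not pass.

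Mcoln1, the calcium channel of the lysosomal membrane, read 3.50, 3.32 and 3.55 log2 with KU-0063794, 3.62, 3.44 and 3.65 log2 with rapamycin, and 3.56, 3.46 and 3.62 log2 with DMSO. The groups overlapped. Its differences from DMSO were -0.09 log2 with KU-0063794 (95% interval -0.30 to 0.12) and 0.03 log2 with rapamycin (-0.19 to 0.24).

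Among the 8 proteases Ctsd, the main aspartic protease of the lysosome, fell with both inhibitors. It read 6.41, 6.32 and 6.30 log2 with KU-0063794, 6.81, 6.44 and 6.36 log2 with rapamycin, and 7.70, 6.99 and 7.19 log2 with DMSO. Neither inhibitor group overlapped with DMSO, and DMSO replicate 1 was the highest array. The fall was -0.95 log2 with KU-0063794, a fold of 0.518 (SE 0.178, adjusted p = 0.0220), and -0.75 log2 with rapamycin, a fold of 0.593 (SE 0.178, adjusted p = 0.0467). With the spleen block the adjusted p was 0.00338 with KU-0063794 and 0.00735 with rapamycin, and both blocked calls were kept without each of the 9 arrays in turn (0.00638 to 0.0189 with KU-0063794, 0.00666 to 0.0423 with rapamycin). Without the block the KU-0063794 call was lost without any 1 KU-0063794 array or DMSO replicate 1 (0.0525 to 0.0811), and the rapamycin call without any 1 array other than DMSO replicate 2 (0.0533 to 0.156).

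Ctss, a cysteine protease best known from antigen-presenting cells, moved the other way. It read 6.06, 7.11 and 6.38 log2 with KU-0063794, 5.73, 7.09 and 6.59 log2 with rapamycin, and 4.86, 6.29 and 5.75 log2 with DMSO. Spleen 2 was the highest and spleen 1 the lowest in every group, so the groups overlapped although each treated culture exceeded the DMSO culture of its own spleen. The differences within spleens were 1.20, 0.82 and 0.63 log2 with KU-0063794 and 0.87, 0.81 and 0.83 log2 with rapamycin. Ctss rose with the spleen block, by 0.88 log2 with KU-0063794 (SE 0.113, adjusted p = 0.00397) and 0.84 log2 with rapamycin (SE 0.113, adjusted p = 0.00482), and both calls were kept without each of the 9 arrays in turn. Without the block it did not pass (adjusted p = 0.318 with KU-0063794 and 0.358 with rapamycin), nor with the spleen as a random effect (0.108 and 0.130).

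The B cell marker Ighm, the immunoglobulin mu heavy chain, followed the same order of spleens. It read 7.45, 9.20 and 8.27 log2 with KU-0063794, 7.24, 9.30 and 8.39 log2 with rapamycin, and 6.96, 9.28 and 7.85 log2 with DMSO. Its adjusted p was 0.888 with KU-0063794 and 0.885 with rapamycin. Ighm is 1 of 7 measured B cell markers, and the order of spleens in the others is not given here. The log2 values of the 7 B cell markers added up to 10.5 to 13.5 with KU-0063794, 9.12 to 13.0 with rapamycin and 10.3 to 13.9 with DMSO. Of the 6 B cell markers tested, 3 had a negative difference with KU-0063794 (median 0.02 log2, range -0.29 to 0.27 log2). With rapamycin 4 of the 6 were negative (median -0.06 log2, range -0.32 to 0.28 log2). The part of other cells in the signal of Ctss was not tested.

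Ctsa, the carboxypeptidase that protects beta-galactosidase and neuraminidase in the lysosome, read 5.07, 5.12 and 5.17 log2 with KU-0063794, 5.27, 5.41 and 5.55 log2 with rapamycin, and 5.06, 5.13 and 5.27 log2 with DMSO. Within each spleen the rapamycin culture was the highest. It rose with rapamycin only with the spleen block (0.26 log2, SE 0.0675, adjusted p = 0.0489, against 0.185 without it), and that call was lost without any 1 of the 9 arrays (0.0670 to 0.160). With KU-0063794 the difference was -0.03 log2 (adjusted p = 0.918).

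Ctsl, a broad cysteine endopeptidase, read 1.07, 1.35 and 1.43 log2 with KU-0063794, 1.13, 1.35 and 1.15 log2 with rapamycin, and 1.38, 1.86 and 1.61 log2 with DMSO. Most of these values lie at or below the background level, and the rapamycin arrays were all below the DMSO arrays. Ctsl fell with rapamycin with the block (-0.40 log2, adjusted p = 0.0287, against 0.163 without it), a call lost without any 1 rapamycin or DMSO array (0.0523 to 0.117). With KU-0063794 it was at -0.33 log2 and did not pass (adjusted p = 0.0547 with the block).

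Tpp1, a tripeptidyl peptidase whose loss causes a childhood neuronal storage disease in humans, read 4.88, 5.29 and 5.13 log2 with KU-0063794, 5.18, 5.43 and 5.39 log2 with rapamycin, and 5.40, 5.46 and 5.40 log2 with DMSO. The KU-0063794 arrays lay below all DMSO arrays, while those with rapamycin overlapped with DMSO. With the block it fell with KU-0063794 (-0.32 log2, adjusted p = 0.0428, against 0.162 without it), a call lost without any 1 of the 9 arrays (0.0619 to 0.173). A second probe set of Tpp1, at the background level, gave 0.02 log2. The remaining 3 proteases, Ctsb, Ctsc and Ctsz, passed neither without the block nor with it, with differences of -0.14, -0.04 and -0.01 log2 with KU-0063794 and -0.03, 0.13 and -0.24 log2 with rapamycin.

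Of the 8 glycosidases and lipid handling genes, which include Npc2 above, 3 more read higher with rapamycin and passed only with the spleen block. Psap is the precursor of the saposins that present sphingolipids to their hydrolases. It read 5.35, 5.31 and 5.54 log2 with KU-0063794, 5.59, 5.40 and 5.70 log2 with rapamycin, and 5.24, 5.13 and 5.16 log2 with DMSO. Both inhibitor groups lay above DMSO without overlap, and spleen 3 was the highest with either inhibitor. Psap rose with rapamycin in the blocked fit (0.39 log2, SE 0.08, adjusted p = 0.0202, against 0.0642 without it), a call lost without rapamycin replicate 1 or 3 or DMSO replicate 1 or 3 (0.0570 to 0.0891). With KU-0063794 the difference was 0.23 log2 (adjusted p = 0.146 with the block). Its second probe set gave 0.21 log2 with rapamycin and 0.01 log2 with KU-0063794.

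Gla, alpha-galactosidase A, read 3.44, 3.80 and 3.45 log2 with KU-0063794, 3.45, 3.72 and 3.65 log2 with rapamycin, and 3.27, 3.32 and 3.19 log2 with DMSO. Each inhibitor array exceeded each DMSO array. Gla rose with rapamycin with the block (0.35 log2, adjusted p = 0.0404, against 0.14 without it), a call lost without any 1 array other than KU-0063794 replicate 2 (0.0543 to 0.152). The KU-0063794 difference of 0.31 log2 did not pass (adjusted p = 0.0608 with the block).

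Gusb, beta-glucuronidase, read 5.54, 5.94 and 5.72 log2 with KU-0063794, 5.29, 5.73 and 5.51 log2 with rapamycin, and 4.98, 5.56 and 5.07 log2 with DMSO. Spleen 2 was the highest in each group, and within every spleen KU-0063794 exceeded rapamycin and rapamycin exceeded DMSO. Gusb rose in the blocked fit with KU-0063794 (0.53 log2, SE 0.0779, adjusted p = 0.00635, against 0.139 without the block) and with rapamycin (0.31 log2, SE 0.0779, adjusted p = 0.0418, against 0.412). The KU-0063794 call was kept without each of the 9 arrays in turn, and the rapamycin call was lost without any 1 array other than DMSO replicate 2 (0.0591 to 0.153). A dim second probe set of Gusb gave -0.000277 log2 with KU-0063794 and -0.09 log2 with rapamycin. The remaining 4 genes, Gaa, Hexa, Neu1 and Lipa, passed in neither fit, with differences of -0.17, 0.08, -0.36 and -0.46 log2 with KU-0063794 and -0.20, 0.22, -0.32 and -0.34 log2 with rapamycin.

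**Figure D3:**
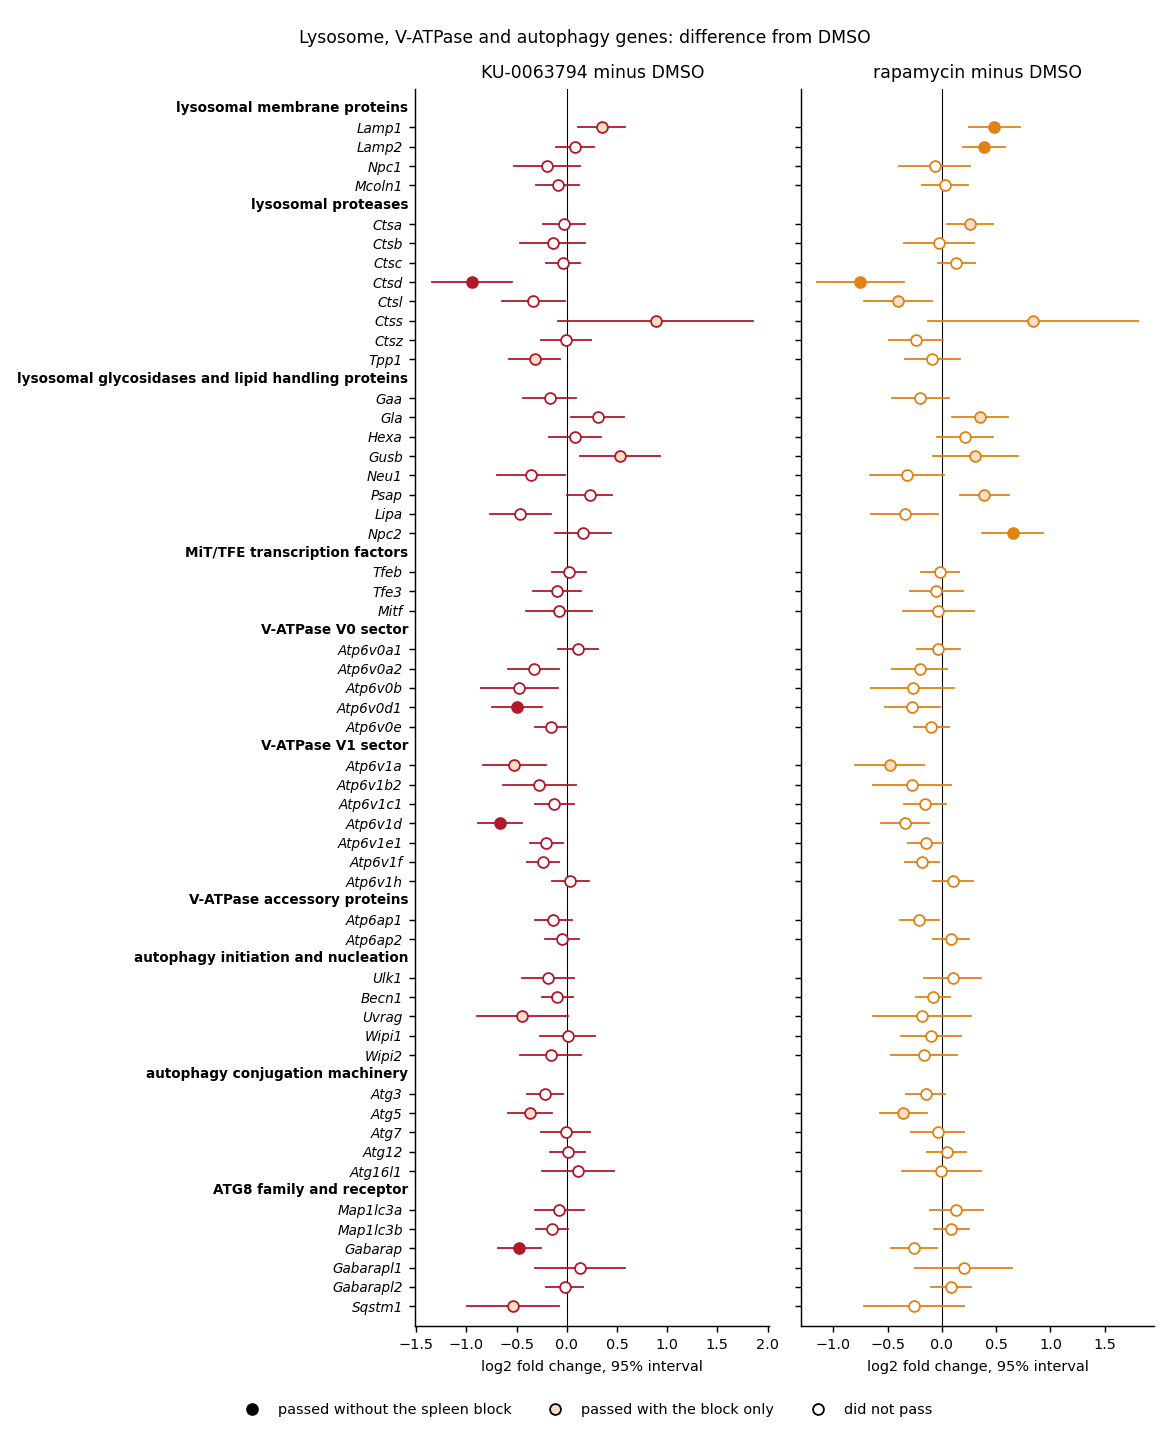
Log2 difference from DMSO (points) with its 95% interval from the fit without the spleen block (lines) for the 53 genes by role, KU-0063794 left and rapamycin right. Filled points passed without the block (4 genes in each contrast), pale points only with it and open points in neither; Atp6v1d at -0.67 log2 with KU-0063794 and Npc2 at 0.65 log2 with rapamycin stand farthest from 0 among V-ATPase and lipid handling genes.

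Most of the V-ATPase genes read lower than DMSO with either inhibitor, by the probe set that stood for each gene. Of the 14 measured, 12 had a negative difference with KU-0063794 (median -0.22 log2) and 12 with rapamycin (median -0.19 log2), against medians of 0.01 log2 and -0.00427 log2 over all genes tested, of which 47% and 51.2% were negative. With KU-0063794 all 3 arrays lay below all 3 DMSO arrays in 8 of the 14 genes, as was the case for 9.29% of all genes tested. With rapamycin this held for 7 of the 14, against 9.69% of all genes. The subunits belong to 1 enzyme and were read on the same arrays, so they are not independent observations. Only 2 of the 14 passed without the spleen block, both with KU-0063794, and 3 passed with the block, 1 of them with both inhibitors.

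Atp6v1d, a subunit of the central stalk that turns as ATP is hydrolysed, read 6.02, 6.09 and 5.82 log2 with KU-0063794, 6.34, 6.29 and 6.29 log2 with rapamycin, and 6.76, 6.49 and 6.68 log2 with DMSO. The groups did not overlap, with KU-0063794 the lowest and rapamycin between it and DMSO. Atp6v1d fell with KU-0063794 by 0.67 on the log2 scale, a fold of 0.63 (SE 0.0993, 95% interval -0.89 to -0.44, adjusted p = 0.0117). This call was kept without each of the 9 arrays in turn, both without the block (0.0133 to 0.0488) and with it (0.00854 to 0.0368). Without the block, leaving out any 1 spleen ended it. Its other 2 probe sets gave -0.56 log2 and -0.62 log2, and both passed when tested on their own (adjusted p = 0.0197 and adjusted p = 0.0149). With rapamycin Atp6v1d was at -0.34 log2 and did not pass (adjusted p = 0.0993, blocked 0.06).

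Atp6v0d1, which joins the stalk to the V0 sector, read 4.98, 4.99 and 4.83 log2 with KU-0063794, 5.29, 4.99 and 5.20 log2 with rapamycin, and 5.57, 5.24 and 5.48 log2 with DMSO. The KU-0063794 arrays lay below all DMSO arrays, and the rapamycin arrays overlapped with DMSO. It fell with KU-0063794 by 0.50 on the log2 scale (SE 0.112, adjusted p = 0.0414, blocked 0.0140), and its difference with rapamycin was -0.27 log2 (adjusted p = 0.237). The KU-0063794 call was lost without any 1 array other than rapamycin replicate 2 or DMSO replicate 2 (0.0527 to 0.150). With the block it was lost without KU-0063794 replicate 1 or 3 or DMSO replicate 1 or 3 (0.0602 to 0.0757).

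Atp6v1a, the catalytic subunit that hydrolyses ATP, read 4.80, 4.84 and 4.52 log2 with KU-0063794, 4.94, 4.68 and 4.66 log2 with rapamycin, and 5.51, 5.08 and 5.14 log2 with DMSO. Neither inhibitor group overlapped with DMSO, and DMSO replicate 1 was the highest. It fell with both inhibitors with the block, by -0.52 log2 with KU-0063794 (SE 0.0971, adjusted p = 0.0138, against 0.0772 without it) and by -0.48 log2 with rapamycin (SE 0.0971, adjusted p = 0.0187, against 0.0960). The KU-0063794 call was lost without KU-0063794 replicate 1 or 3 or DMSO replicate 1 or 3 (0.0576 to 0.0733), and the rapamycin call without any 1 rapamycin array or DMSO replicate 1 or 3 (0.0627 to 0.0915). A dimmer probe set of Atp6v1a, at a mean of 3.78 log2, gave -0.93 log2 with KU-0063794 and -0.66 log2 with rapamycin. It passed in the test of each probe set on its own without a block (adjusted p = 0.00802 with KU-0063794 and 0.0164 with rapamycin).

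The other V-ATPase genes passed in neither fit. In the V1 sector Atp6v1b2, Atp6v1c1, Atp6v1e1 and Atp6v1f had differences of -0.27, -0.12, -0.21 and -0.23 log2 with KU-0063794 and -0.27, -0.16, -0.15 and -0.18 log2 with rapamycin, and Atp6v1h, the regulatory H subunit, 0.03 and 0.10 log2. Of the V0 sector Atp6v0a2, Atp6v0b and Atp6v0e were at -0.33, -0.47 and -0.16 log2 with KU-0063794 and at -0.21, -0.27 and -0.10 log2 with rapamycin. Atp6v0a1 was below background, at 0.11 and -0.03 log2. The accessory proteins Atp6ap1 and Atp6ap2, which help assemble the pump, were at -0.13 and -0.05 log2 with KU-0063794 and at -0.21 and 0.08 log2 with rapamycin.

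**Figure D4:**
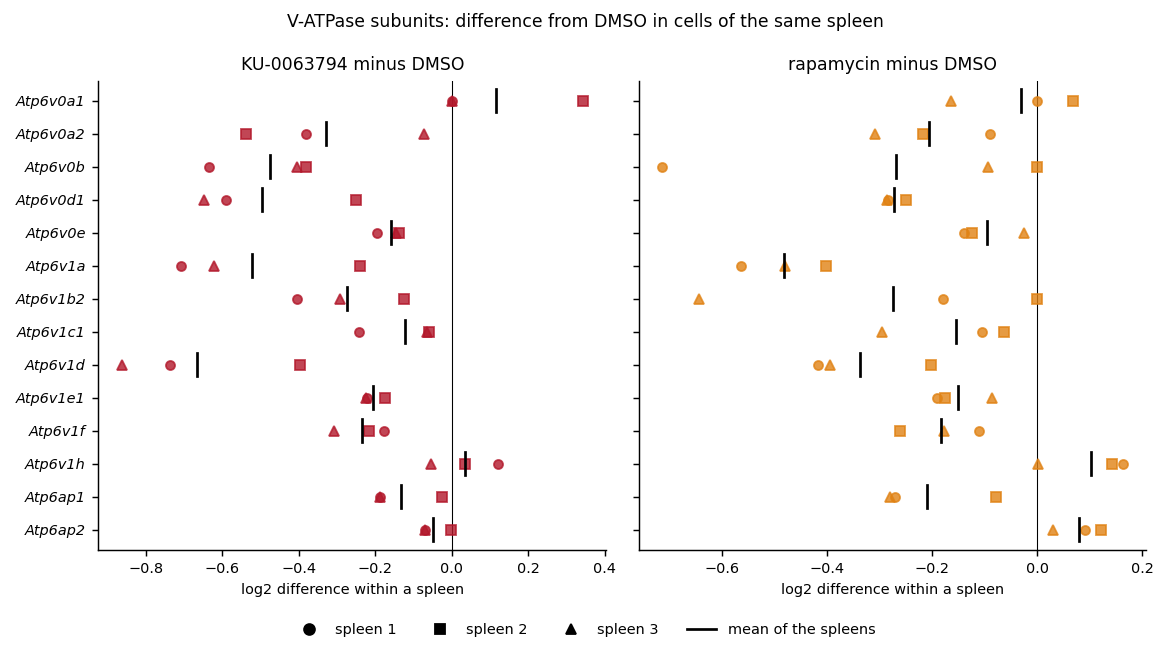
Log2 difference from the DMSO culture of the same spleen for the 14 V-ATPase genes, KU-0063794 left and rapamycin right; symbols are the 3 spleens and bars their mean. With KU-0063794 the differences of Atp6v1d were -0.74, -0.40 and -0.86 log2 and those of Atp6v1a -0.71, -0.24 and -0.62 log2, while those of Atp6v1h lay between -0.05 and 0.12 log2.

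Of the 16 autophagy genes, Gabarap fell with KU-0063794 without the block, and Sqstm1, Uvrag and Atg5 fell with it. In limma's test 0 of the 16 rose in either fit with either inhibitor. Of all genes 2.28% rose with KU-0063794 and 2.65% with rapamycin without the block, and 6.52% and 6.24% with it. A count of 0 in 16 is near these shares. Of all genes 1.78% fell with KU-0063794 without the block and 5.86% with it. With KU-0063794 the median difference was -0.12 log2 and 12 of the 16 were negative, and with rapamycin the median was -0.06 log2 and 10 were negative. All arrays of the inhibitor lay below all DMSO arrays in 6 of the 16 with KU-0063794, where 9.29% of all genes did so, and in 3 with rapamycin, where 9.69% did. In 0 of the 16 did they all lie above, where 11% of all genes did with KU-0063794 and 9.38% with rapamycin.

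Gabarap, an ATG8 protein that is conjugated to lipid on the forming autophagosome, read 6.11, 6.08 and 6.12 log2 with KU-0063794, 6.32, 6.31 and 6.33 log2 with rapamycin, and 6.72, 6.37 and 6.64 log2 with DMSO. The groups did not overlap, and the spread was widest in DMSO. It fell with KU-0063794 by 0.47 on the log2 scale (SE 0.0948, adjusted p = 0.0280, and 0.0117 in the blocked fit), and with rapamycin it was at -0.25 log2 (adjusted p = 0.192, blocked 0.101). The KU-0063794 call was lost without any 1 KU-0063794 array or DMSO replicate 1 or 3 (0.0795 to 0.1002). With the block it was lost without KU-0063794 replicate 1 or 3 or DMSO replicate 1 or 3 (0.0521 to 0.0658).

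The other ATG8 genes passed neither without the block nor with it. Map1lc3b, which encodes the LC3B protein used to follow autophagosomes, read 7.14, 7.16 and 7.14 log2 with KU-0063794, 7.35, 7.31 and 7.45 log2 with rapamycin, and 7.31, 7.29 and 7.25 log2 with DMSO. The KU-0063794 arrays were the lowest, and those with rapamycin overlapped with DMSO. Its differences from DMSO were -0.14 log2 with KU-0063794 (adjusted p = 0.323) and 0.09 log2 with rapamycin (adjusted p = 0.599). Gabarapl1, a relative of Gabarap, read 5.29, 5.22 and 5.87 log2 with KU-0063794, 5.39, 5.36 and 5.83 log2 with rapamycin, and 5.20, 5.20 and 5.59 log2 with DMSO. Spleen 3 was the highest in each group, and no difference passed (0.13 log2 with KU-0063794 and 0.20 log2 with rapamycin). A dimmer second probe set of Gabarapl1, at a mean of 3.39 log2, gave 0.24 log2 with KU-0063794 and 0.40 log2 with rapamycin. The rapamycin value passed with the block when probe sets were tested on their own (adjusted p = 0.0468, against 0.629 without it), as did the mean of both probe sets (0.30 log2, adjusted p = 0.0274). Map1lc3a and Gabarapl2 were at -0.08 and -0.02 log2 with KU-0063794 and at 0.13 and 0.08 log2 with rapamycin.

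Sqstm1, the p62 cargo receptor that is itself degraded by autophagy, read 4.81, 4.74 and 5.29 log2 with KU-0063794, 5.26, 4.92 and 5.51 log2 with rapamycin, and 5.38, 5.26 and 5.82 log2 with DMSO. Spleen 3 was the highest in every group, and the groups overlapped, but in each spleen KU-0063794 was below rapamycin and rapamycin below DMSO. The differences within spleens were -0.57, -0.52 and -0.53 log2 with KU-0063794 and -0.12, -0.34 and -0.31 log2 with rapamycin. Sqstm1 fell with KU-0063794 with the block (-0.54 log2, SE 0.0764, adjusted p = 0.00559, against 0.195 without it), and this call was kept without each of the 9 arrays in turn (0.00797 to 0.0351). It was lost with the spleen as a random effect (adjusted p = 0.0506) and, in the blocked fit, when averaged with a probe set below the background level (-0.29 log2, adjusted p = 0.0548). With rapamycin it was at -0.26 log2 and did not pass (adjusted p = 0.0721 with the block).

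Uvrag, a partner of the Beclin 1 kinase complex, read 4.26, 4.65 and 3.89 log2 with KU-0063794, 4.34, 4.81 and 4.43 log2 with rapamycin, and 4.60, 4.95 and 4.57 log2 with DMSO. KU-0063794 was the lowest culture of each spleen. It fell with KU-0063794 with the block (-0.44 log2, adjusted p = 0.0279, against 0.279 without it), a call lost without any 1 KU-0063794 or DMSO array or rapamycin replicate 2 (0.0507 to 0.107). With rapamycin it was at -0.18 log2 (adjusted p = 0.304 with the block).

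Atg5, which is joined to Atg12 to form the enzyme that attaches ATG8 proteins to lipid, read 3.56, 3.42 and 3.40 log2 with KU-0063794, 3.59, 3.35 and 3.50 log2 with rapamycin, and 3.82, 3.97 and 3.71 log2 with DMSO. All inhibitor arrays lay below all DMSO arrays. It fell with the block by -0.37 log2 with KU-0063794 (adjusted p = 0.0389, against 0.0749 without it) and by -0.35 log2 with rapamycin (adjusted p = 0.0470, against 0.0822). The KU-0063794 call was lost without any 1 array other than rapamycin replicate 2 (0.0528 to 0.132), and the rapamycin call without any 1 of the 9 arrays (0.0707 to 0.167). Of its other 2 probe sets above the background level, 1 gave -0.45 log2 with KU-0063794 and -0.21 log2 with rapamycin, and the other 0.21 and 0.18 log2.

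The other autophagy genes passed in neither fit. Ulk1, the kinase that starts autophagosome formation, was at -0.19 log2 with KU-0063794 and 0.10 log2 with rapamycin, and Becn1, Wipi1 and Wipi2 were at -0.09, 0.01 and -0.16 log2 with KU-0063794 and at -0.08, -0.10 and -0.16 log2 with rapamycin. In the conjugation machinery Atg3, Atg7, Atg12 and Atg16l1 were at -0.22, -0.01, 0.01 and 0.11 log2 with KU-0063794 and at -0.15, -0.04, 0.04 and -0.01 log2 with rapamycin.

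The transcripts of the MiT/TFE factors themselves did not pass with either inhibitor. Tfe3 read 2.86, 2.80 and 2.87 log2 with KU-0063794, 2.87, 3.02 and 2.79 log2 with rapamycin, and 3.06, 3.05 and 2.72 log2 with DMSO. Tfeb read 1.28, 1.26 and 1.33 log2 with KU-0063794, 1.26, 1.22 and 1.26 log2 with rapamycin, and 1.15, 1.27 and 1.36 log2 with DMSO. Mitf, at 0.06 to 0.67 log2 over the 9 arrays, and Tfeb lay below the background level on every array. The groups overlapped for all 3 genes. For Tfe3 the 95% interval was -0.34 to 0.14 log2 with KU-0063794 and -0.29 to 0.19 log2 with rapamycin. Arrays of RNA do not show where the proteins were in the cell.

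Genes with an E-box in their promoter window moved in both directions. Of the 14, 2 had a positive and 12 a negative difference with KU-0063794 (median -0.19 log2), and 4 a positive and 10 a negative difference with rapamycin (median -0.17 log2). Of the 29 genes with a window and no E-box, 10 were positive and 19 negative with KU-0063794 (median -0.08 log2), and 12 positive and 17 negative with rapamycin (median -0.03 log2). Lamp1, Ctsa and Gla, whose stretches are printed above, rose with rapamycin in the blocked fit, and Ctsd, Ctsl, Atp6v1a and Atg5 fell. With KU-0063794 in the same fit Lamp1 rose, and Ctsd, Atp6v0d1, Atp6v1a and Atg5 fell. The extended form was present in genes of both kinds, Ctsa and Gla on one side and Ctsd and Atp6v1a on the other. Among the 29 genes without an E-box, 5 rose and 0 fell with rapamycin in the blocked fit, and 2 rose and 5 fell with KU-0063794. In that fit 6.24% of all genes rose and 5.52% fell with rapamycin, and 6.52% rose and 5.86% fell with KU-0063794. Genes with and without an E-box were not tested against each other.

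The direct comparison of KU-0063794 with rapamycin asked where the kinase inhibitor differed from the allosteric one. No gene passed, among the 53 or in the whole table (0% of all genes tested, with or without the spleen block, by limma). At an unadjusted p under 0.05, 8 of the 53 genes differed, all lower with KU-0063794, without the block, where 4.74% of all genes did, and 14 with the block, 2 higher and 12 lower, where 10% did. The doses were 1 uM of KU-0063794 and 20 nM of rapamycin, and neither was varied.

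Of the 53 genes, 40 read lower with KU-0063794 than with rapamycin (median -0.07 log2), while over all genes tested 46.2% were lower and the median was 0.01 log2. All KU-0063794 arrays lay below all rapamycin arrays in 11 of the 53, where 3.3% of all genes did so, and above in 0, where 4.87% did. The 11 were Lamp1, Lamp2, Ctsa, Ctsc, Hexa, Npc2, Atp6v0d1, Atp6v1d, Ulk1, Map1lc3b and Gabarap. Npc2 had the lowest value, at -0.49 log2 (SE 0.125, 95% interval -0.77 to -0.21, unadjusted p = 0.00314, adjusted p = 0.933), with -0.46, -0.38 and -0.64 log2 in the 3 spleens. Atp6v1d followed at -0.33 log2 (interval -0.55 to -0.10), then Lamp2 at -0.30 log2 (-0.50 to -0.11), whose 4 probe sets were all lower with KU-0063794. Ctsa and Ulk1 were at -0.28 log2, Map1lc3b at -0.23 log2 and Gabarap at -0.22 log2. The ATG8 family and Sqstm1 were lower with KU-0063794 in 6 of 6 genes (median -0.21 log2). For Ctsd, the gene that fell with both inhibitors, the difference was -0.20 log2 with an interval of -0.60 to 0.20 log2.

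**Figure D5:**
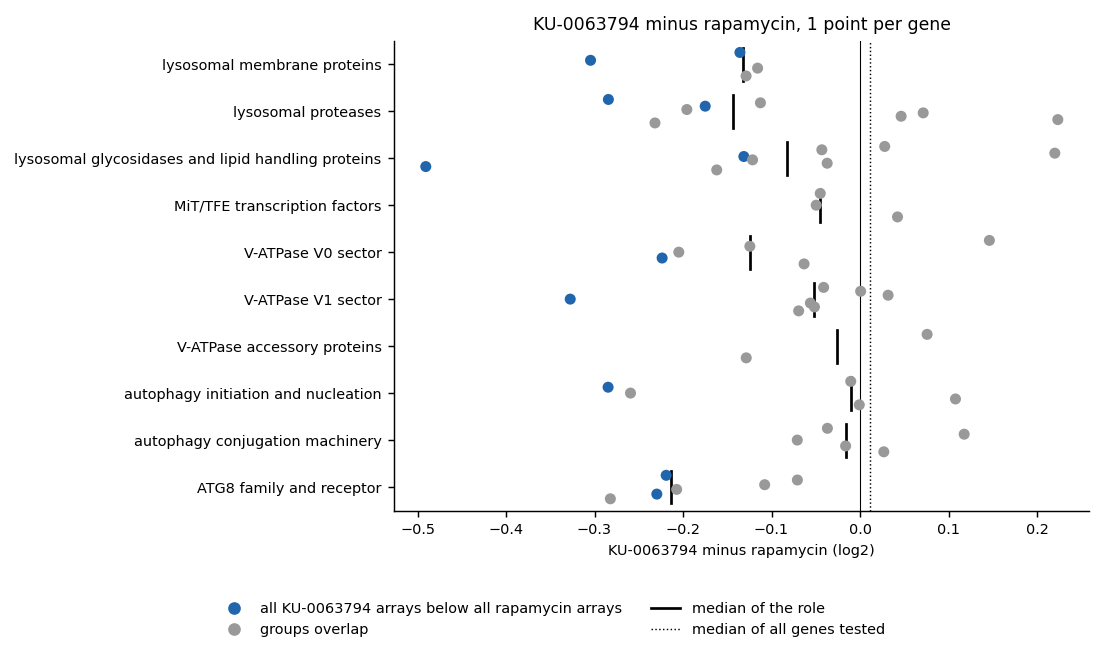
Difference of KU-0063794 minus rapamycin (log2) for the 53 genes, 1 point per gene, by role; blue points are genes whose 3 KU-0063794 arrays all lay below the 3 rapamycin arrays, solid bars are role medians and the dotted line is the median of all genes tested (0.01 log2). Of the points, 40 lie below 0 and 11 are blue, with Npc2 at -0.49 log2 the lowest; no gene passed the test.

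Across the 53 genes of all roles together, the 3 arrays of a group separated from DMSO without overlap in 4 genes upward with KU-0063794, where 11% of all genes did, and in 8 upward with rapamycin, where 9.38% did. Downward it was 18 genes with KU-0063794 and 12 with rapamycin, against the shares of all genes given above for the V-ATPase. The upward genes were lysosomal in every case, 4 with KU-0063794 and 8 with rapamycin of the 20 measured.

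The choice of probe set, filter and normalization mattered for some genes. Averaging all probe sets of a gene, dim ones included, ended the rapamycin calls of Npc2 and Lamp2 without the block. With the block it ended those of Atg5, Ctsa, Ctsl, Gla, Gusb and Lamp2 with rapamycin (-0.13, 0.14, -0.16, 0.14, 0.11 and 0.03 log2) and those of Atg5, Gusb, Sqstm1 and Tpp1 with KU-0063794 (-0.20, 0.26, -0.29 and -0.15 log2). With no filter on low values the rapamycin call of Ctsd was lost (adjusted p = 0.0571), with median centring that of Lamp2 (0.0669), and with quantile normalization the blocked rapamycin call of Ctsa (0.0521). Some genes passed only under another setting. With the filter at the background level and the block, Atg3, Atp6v0b, Atp6v1e1, Atp6v1f and Lipa were lower and Gla higher with KU-0063794, and Ctsz, Sqstm1 and Atp6v1d were lower with rapamycin (adjusted p of 0.0271 to 0.0427). Lipa with KU-0063794 (adjusted p = 0.0442) and Atp6v1d with rapamycin (0.0460) also passed with the spleen as a random effect, and Atp6v1f with KU-0063794 with trend and robust (0.0449). Leaving out KU-0063794 replicate 3 brought Atp6v0a2 past the threshold with KU-0063794 in the blocked fit (0.0348), and leaving out DMSO replicate 2 did so for Gabarap with rapamycin (0.0419, blocked 0.0424). The 53 genes had 132 probe sets, of which 108 passed the signal filter. When each probe set was tested on its own, 9 of the 108 passed with KU-0063794, all lower, where 2.7% of all probe sets passed in either direction. With rapamycin 5 passed, 4 higher and 1 lower, where 3.04% of all probe sets did. The 9 included all 3 of Atp6v1d, 1 each of Atp6v1a, Atg5, Ctsd and Gabarap, and 2 of Lamp2. The lower one with rapamycin was the dimmer probe set of Atp6v1a (adjusted p = 0.0164). In these tests without the block the only probe set of Ctsd did not pass with rapamycin (0.0569), nor that of Atp6v0d1 with KU-0063794 (0.0525). Of 21 genes with several probe sets above the background level, these differed in sign for 10 with KU-0063794 and for 7 with rapamycin.

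Of 113 other genes listed for the same pathways 94 were measured, and the shares of all genes called are those given above. With KU-0063794 1 rose and 4 fell, and with the spleen block 3 rose and 12 fell. With rapamycin 0 rose and 2 fell (24 had an unadjusted p under 0.05 in either direction), and with the block 3 rose and 6 fell. The difference was negative in 50% of them with KU-0063794 (median 0.00427 log2) and in 48.9% with rapamycin (median 0.02 log2), against 71.7% and 64.2% of the 53 genes. Of the 4 other V-ATPase genes measured, 2 were negative with KU-0063794 and 1 with rapamycin.

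Of the 45 other lysosomal genes measured, Igf2r, the large mannose 6-phosphate receptor that carries hydrolases to the lysosome, read 4.73, 4.11 and 4.45 log2 with KU-0063794, 5.42, 4.63 and 4.95 log2 with rapamycin, and 5.72, 5.36 and 5.45 log2 with DMSO. It was the lowest with KU-0063794 in every spleen and fell by 1.08 on the log2 scale (SE 0.213, adjusted p = 0.0267). With rapamycin Igf2r was at -0.51 log2 and passed with the block alone (adjusted p = 0.0128, against 0.252 without it). Gnptab, a subunit of the enzyme that makes the mannose 6-phosphate tag, rose with KU-0063794 by 0.43 log2 (adjusted p = 0.0293). Cln3, a lysosomal membrane protein lost in juvenile Batten disease, fell by 0.67 on the log2 scale (adjusted p = 0.0363), with every KU-0063794 array below the background level. Laptm5, a lysosomal membrane protein of blood cells that was named after its value was seen, fell by 0.44 on the log2 scale (adjusted p = 0.0169). With rapamycin Asah1, acid ceramidase, fell by 0.51 on the log2 scale (adjusted p = 0.0375), and with KU-0063794 it was at -0.48 log2 (0.0512, and 0.00806 in the blocked fit). Without the block these calls were lost without any 1 KU-0063794 array or DMSO replicate 1 for Igf2r, Gnptab, Cln3 and Laptm5, and without further arrays for all of these but Laptm5 (adjusted p of up to 0.108, 0.109, 0.137 and 0.0633). For Igf2r and Gnptab the further array was DMSO replicate 3, and for Cln3 they were rapamycin replicates 1 and 2 and DMSO replicate 2. The Asah1 call was lost without any 1 array other than KU-0063794 replicate 2 and rapamycin replicate 2 (0.0517 to 0.130). In the blocked fit the calls of these 5 genes named here were kept without each of the 9 arrays in turn, except that of Igf2r with rapamycin, lost without rapamycin replicate 2 or 3 (0.0598 and 0.0613).

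Tmem41b, a lipid scramblase of the endoplasmic reticulum needed to form autophagosomes, was the only one of 30 other autophagy genes to pass without the block. It read 4.0, 3.78 and 3.92 log2 with KU-0063794, 3.87, 3.79 and 3.64 log2 with rapamycin, and 4.70, 4.55 and 4.48 log2 with DMSO. Both inhibitor groups lay below DMSO without overlap. It fell by 0.68 on the log2 scale with KU-0063794 (SE 0.0989, adjusted p = 0.0114) and by 0.81 with rapamycin (SE 0.0989, adjusted p = 0.00649), and both calls were kept without each of the 9 arrays in turn. Of 4 other V-ATPase genes Atp6v1g1, a stator subunit, passed with the block alone and with KU-0063794 alone (-0.44 log2, adjusted p = 0.0110, against 0.0884 without it), a call lost without KU-0063794 replicate 1 or 3 or DMSO replicate 1 (0.0561 to 0.0626). Of 15 genes of the lysosomal platform on which mTORC1 is activated, 0 passed in limma without the block with either inhibitor (1 had an unadjusted p under 0.05 with KU-0063794 and 2 with rapamycin). Rraga, which encodes the RagA GTPase, fell with KU-0063794 with the block (-0.45 log2, adjusted p = 0.0315, against 0.122), a call lost without KU-0063794 replicate 2 or 3, rapamycin replicate 2 or any DMSO array (0.0516 to 0.131).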

How the data were processed

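Total RNA of 9 CTL cultures was read on 1 Affymetrix array each. The deposited values are log2 signals per probe set; the submitters' processing notes name Affymetrix Expression Console 1.3.1 for the step by which the authors made them, and the summarisation and normalization methods are not given in the sources used here. Array medians of 0.47 to 0.53 log2 show values already on 1 scale, and they were used as deposited; all 9 value columns were used.

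Of 45101 probe sets 64 were controls, 34945 carried a single symbol, 932 carried several and 9160 were not listed. The brightest probe set by mean stood for each gene, and genes above the 40th percentile of non-control probe sets (0.31 log2) were tested. The 55 genes, their roles and the lists of other genes were chosen with earlier results of these data known.

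limma 3.58.1 in R 4.3.3 (lmFit, eBayes, two-sided) was fitted to all 9 arrays with the 3 groups, with Benjamini-Hochberg adjustment over 13278 genes and a threshold of 0.05. Per the labels, 1 spleen gave the cultures of 1 replicate number. Their deviations from the group means correlated across genes with r of 0.345 to 0.533 in 9 pairs, against -0.414 to -0.0791 in 18 pairs from different spleens, so a second fit took the spleen number as a fixed block. Deviations of a group sum to 0 over its 3 arrays. Positive r within spleens therefore brings negative r between them, and the negative values add no separate evidence. No 2 arrays were identical (r between 0.986 and 0.997). Fits without each array in turn, with the spleen as a random effect, on only 2 groups, with other normalizations, filters and probe set rules, and with eBayes trend and robust were also run. Blocked fits with arrays left out, with other filters, normalization or probe set means, and tests of single probe sets were chosen after seeing the data. The procedure was tested on simulated data. With 3 arrays a group, the number of arrays limits the precision. Every gene of the 53 called without or with the fixed block is given with its values on each array, as are a few always named. Of the other pathway lists the rule named at most 4 called genes each, and Laptm5 was added after its value was seen. Promoter sequences are from RefSeq (GRCm38.p6).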

Additional observations from a re-analysis of the deposited data

How the results depend on the processing

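The count of the 53 genes that passed was 4 with KU-0063794 and 4 with rapamycin. With the spleen as a fixed replicate block it was 12 with KU-0063794 and 12 with rapamycin, as a random replicate block 9 with KU-0063794 and 8 with rapamycin, and with only the 2 groups compared 0 in both. Without each array or spleen in turn it ranged over 0 to 5 with KU-0063794 and 0 to 2 with rapamycin. Leaving out any 1 spleen gave 0 with either inhibitor. With the block and without each array in turn it ranged over 5 to 10 and 3 to 10, and blocked fits without a spleen were not run. With the probe set of the largest interquartile range Lamp2 turned to -0.43 log2 with rapamycin and Tpp1 to 0.0215 log2 with KU-0063794. KU-0063794 against rapamycin gave 0 genes under every alternative run. Why calls moved was not tested. With 3 spleens, a call that 1 array can end is limited by the number of arrays, and genes below the background level by their signal.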
